A study of Mus musculus with 8 samples.

Results

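The genes examined here encode the proteins of the mitochondrial ribosome. They were taken as the probe sets of the array that the platform annotation gives exactly 1 gene symbol beginning with Mrpl or Mrps and a digit. This gave 76 probe sets, each for a different gene, among 28846 in all. By symbol 48 belong to the large subunit (Mrpl) and 28 to the small subunit (Mrps). RefSeq lists 78 protein-coding genes with such symbols, and the other 2, Mrps6 and Mrpl53, were not analysed here. The rule used symbols alone and no measured value.

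Expression was measured on biotin-labelled Affymetrix arrays in mesenchymal stromal cells, the fibroblast-like cells of connective tissue, grown from the inguinal fat pad of male FVB mice aged 12 months. All cells had been infected with the lentiviral vector pLKO.1. In 4 arrays (shIRF7) it carried a short hairpin RNA against Irf7, in 2 arrays (scramble) a scramble construct, and in 2 arrays (empty vector) no insert. Irf7 is a transcription factor of the type I interferon response, studied in this series for its role in stromal cell ageing. A single hairpin name stands for the knockdown, and the labels do not say whether the replicates of a group came from separate infections, cultures or animals, so the p-values cover no more than the variation from array to array, which could be purely technical.

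Mitochondria carry their own ribosome, which translates the few proteins that mitochondrial DNA still encodes, nearly all of them subunits of the respiratory chain and ATP synthase. Its RNAs come from mitochondrial DNA, but every one of its proteins is encoded in the nucleus, made in the cytosol and imported. The small subunit decodes the messenger RNA, the large subunit joins the amino acids and threads the new chain towards the inner membrane, and many of the proteins have no bacterial counterpart.

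Values are log2 expression values, so a difference of 1 is a 2-fold change. Irf7 measured 4.42, 5.66, 6.47 and 6.79 in shIRF7 replicates 1 to 4, against 9.56 and 9.76 in scramble and 9.55 and 9.61 in empty vector. Its difference was -3.79 (SE 0.48, adjusted p = 0.0692 in limma), and the two-sided exact permutation p was 0.0286, the smallest that 4 against 4 arrays allow. The target was lower on every array labelled for its knockdown than on any control. Medians of the negative control probe sets were 4.18, 4.56, 4.54 and 4.33 in shIRF7 replicates 1 to 4, 4.26 and 4.56 in scramble replicates 1 and 2, and 4.21 and 4.55 in empty vector replicates 1 and 2. In replicates 1 and 2 they followed the replicate number, and differences within replicates 1 and 2 are given beside the pooled ones. Of the 6 stromal markers measured, 4 (Pdgfrb, Eng, Cd44 and Itgb1) were brighter than 95% of the negative controls on all 8 arrays, while Nt5e did so on none and Thy1 on 2. The mean of the 6 was 10.8 to 11.6 on the shIRF7 arrays and 11.7 to 11.9 on the control arrays. That gap came mainly from Thy1 (-2.15, shIRF7 minus controls) and Cd44 (-1.34), beside Eng (-0.42), Itgb1 (-0.10), Pdgfrb (0.019) and Nt5e (0.10), and its part in the results was not tested. Of 21 measured markers of leukocytes, endothelium, adipocytes, epithelium and muscle, 0 were so on any array. Among the mitochondrial ribosomal genes 53 of 76 cleared the same background level on all 8 arrays, 15 on some and 8 on none (Mrpl22, Mrpl36, Mrpl41, Mrpl44, Mrpl46, Mrpl54, Mrps12 and Mrps35). Values of these 8 cannot be told from array background.

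With Irf7 knocked down, the mitochondrial ribosomal genes differed from the controls by little. The median log2 difference, shIRF7 minus the mean of both controls, was 0.07 over the 76 genes, against 0.0017 over all 19505 genes. It was above 0 in 46 genes and below 0 in 30, and ran from -0.61 (Mrps2) to 0.81 (Mrps27), with 68 genes within 0.5 either way. In limma 0 of the 76 passed an adjusted p of 0.05 (all genes 0.0308%). Without adjustment 8 were higher and 2 lower at a p under 0.05, which is 10.5% and 2.63% of the members, where the shares over all genes were 4.01% higher and 4.1% lower. The lowest adjusted p in limma was 0.215, for Mrpl30. The 95% interval of a member's difference extended a median of 0.46 to either side. All intervals given here are not adjusted for the number of genes, unlike the calls, so an interval that leaves out 0 is not a call. Differences under 0.46 could not be resolved for a typical member even without adjustment, and a call needed more. In bulk RNA, fewer cells of a kind and less RNA per cell cannot be told apart.

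**Figure D1:**
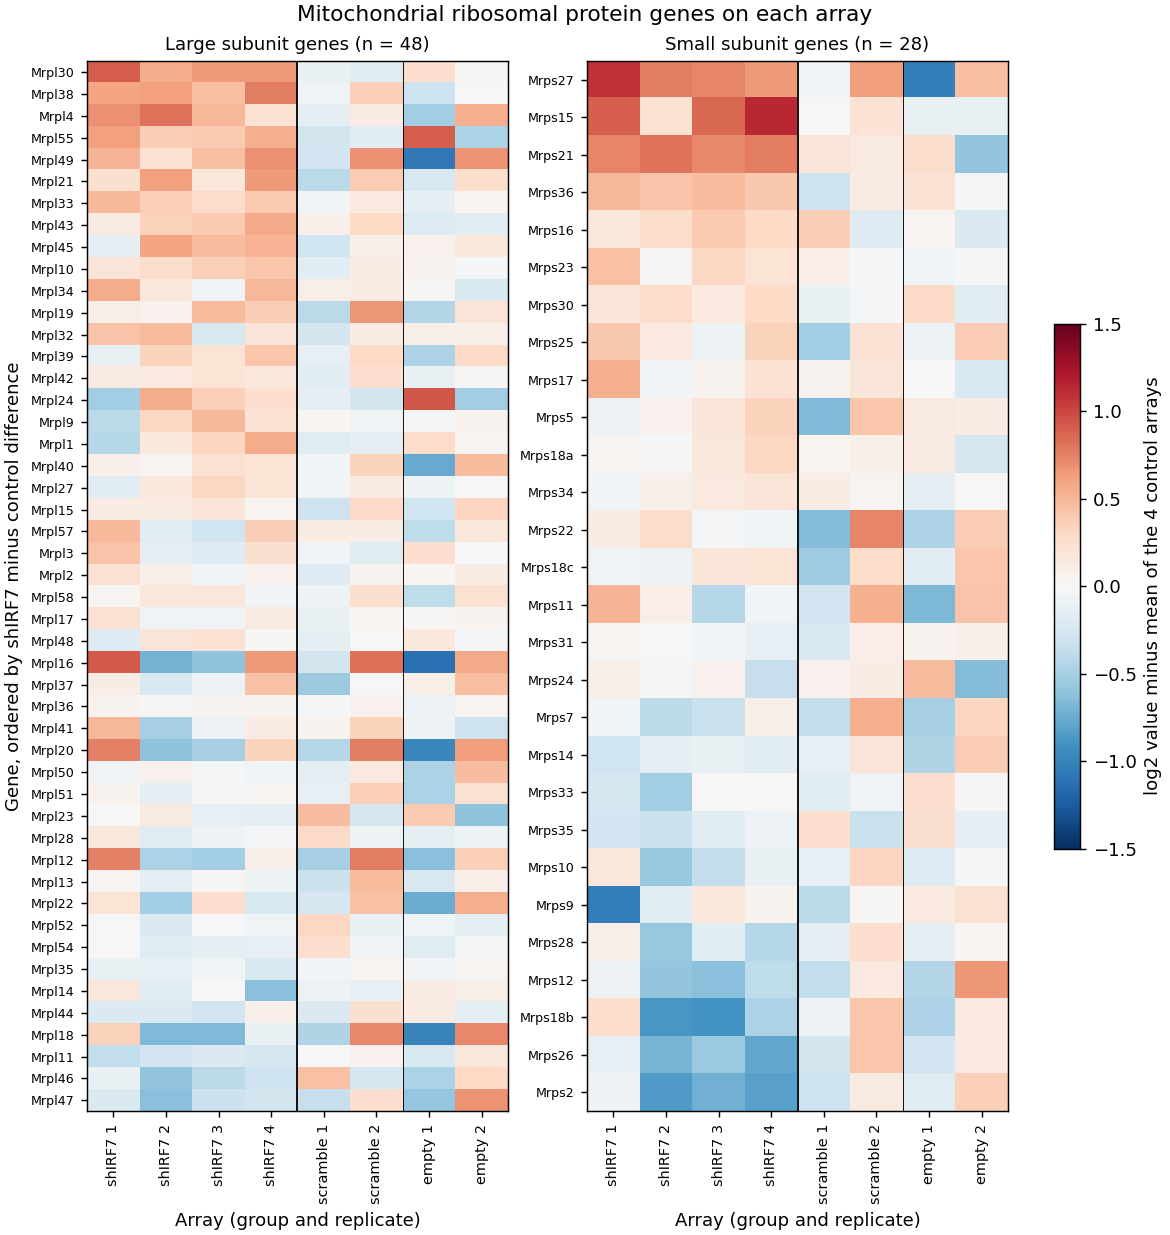
Each cell is the log2 value of 1 gene (row) on 1 array (column) minus that gene's mean over the 4 control arrays, red above and blue below, with colours ending at 1.5 either way. Large and small subunit genes have a panel each. Columns run shIRF7, scramble, empty vector, and rows run from the gene most above the controls in shIRF7 to the one most below. The upper rows are red across all 4 shIRF7 arrays (Mrpl30, Mrps21, Mrps36), while rows such as Mrpl16, Mrpl20 and Mrpl18 change colour between arrays of the same group.

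The lowest shIRF7 value exceeded the highest control value in 7 members, 9.21% of the members against 2.58% of all genes, and the highest shIRF7 value was below the lowest control value in 0 members, against 2.8% of all genes. The 7 were Mrpl30, Mrpl38, Mrpl33 and Mrpl10 of the large subunit and Mrps27, Mrps21 and Mrps36 of the small. Without shIRF7 replicate 1, where 3 arrays stand against 4, the count above was 11 (14.5%, all genes 6.98%) and the count below was 4 (5.26%, all genes 6.05%). The arrays spread less in shIRF7 than in the controls, with a median SD over members of 0.19 in shIRF7 and 0.28 in the controls, and the SD was the larger in the controls in 54 of 76 members. The control SD pools scramble and empty vector and so includes any difference between them, and no share over all genes is given. Differences of the 7 within replicate 1 and within replicate 2 were above 0 by the way they were chosen, and add no separate support.

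Mrpl30, a large subunit protein with a bacterial counterpart, measured 10.76, 10.41, 10.50 and 10.50 in shIRF7 replicates 1 to 4, against 9.75 and 9.69 in scramble and 10.11 and 9.88 in empty vector. The lowest shIRF7 array lay above the highest control, empty vector replicate 1, by more than the spread among the lower 3 shIRF7 arrays. The means were 10.5 ± 0.15 in shIRF7 and 9.86 ± 0.19 in the controls (SD, n = 4 each), a difference of 0.68 (SE 0.14, 95% interval 0.36 to 1.01, adjusted p = 0.215), or 1.61-fold. Within replicates 1 and 2 it was 0.83 and 0.62.

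Mrps27, a mitochondria-specific protein of the small subunit that belongs to the pentatricopeptide repeat RNA-binding family, had the largest positive difference of all members. It measured 9.74, 9.42, 9.39 and 9.29 in shIRF7, against 8.59 and 9.28 in scramble and 7.63 and 9.11 in empty vector. The shIRF7 arrays were close together while the controls spread over more than 1 log2 unit, and shIRF7 replicate 4 cleared scramble replicate 2 by a margin of only the second decimal. Its difference was 0.81 (SE 0.33, 95% interval 0.05 to 1.57, adjusted p = 0.59), and it was 1.63 between arrays of replicate 1 but 0.23 between those of replicate 2. Empty vector replicate 1, the lowest control, did not exceed array background, so the size of this difference is uncertain.

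Mrps21, a small subunit protein with a bacterial counterpart, measured 12.71, 12.79, 12.70 and 12.74 in shIRF7, against 12.18 and 12.11 in scramble and 12.24 and 11.38 in empty vector. Its 4 shIRF7 values had an SD of 0.04, and the lowest control was empty vector replicate 2. The difference was 0.76 (SE 0.19, 95% interval 0.31 to 1.21, adjusted p = 0.331), and within replicates 1 and 2 it was 0.50 and 1.04.

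Mrpl38, a mitochondria-specific protein of the large subunit, measured 9.20, 9.22, 9.05 and 9.37 in shIRF7, against 8.54 and 8.96 in scramble and 8.29 and 8.61 in empty vector, a difference of 0.61 (SE 0.16, adjusted p = 0.338). Its value in empty vector replicate 2 did not exceed array background. The smaller differences of Mrpl33 and Mrpl10 were 0.38 (SE 0.13, adjusted p = 0.516) and 0.31 (SE 0.13, adjusted p = 0.619). Mrpl10 forms the base of the stalk of the large subunit that recruits translation factors. Mrps36, named as a small subunit protein but since placed in the 2-oxoglutarate dehydrogenase complex of the citric acid cycle, measured 10.63, 10.57, 10.59 and 10.54 in shIRF7, against 9.82 and 10.26 in scramble and 10.35 and 10.11 in empty vector. Its shIRF7 arrays were nearly identical, with an SD of 0.039 against 0.23 in the controls, and it differed by 0.45 (SE 0.15, adjusted p = 0.489). RefSeq lists 3 pseudogenes named after Mrps36, and probes may not separate it from them, so its value is uncertain.

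Among the members most above the controls, 2 others missed this separation. Mrps15, a small subunit protein that binds the ribosomal RNA, measured 8.45, 7.76, 8.41 and 8.68 in shIRF7, against 7.55 and 7.77 in scramble and 7.44 and 7.44 in empty vector. Only shIRF7 replicate 2 reached down to the controls, and the difference was 0.78 (SE 0.21, adjusted p = 0.372), of which replicate 1 alone gave 0.96 and replicate 2 alone 0.16. Only shIRF7 replicates 1 and 4 exceeded array background, so the control values of Mrps15 cannot be told from it and its difference is uncertain. Mrpl4, a large subunit protein near the exit tunnel, measured 9.49, 9.62, 9.30 and 9.02 in shIRF7, against 8.65 and 8.93 in scramble and 8.29 and 9.35 in empty vector, a difference of 0.55 (SE 0.26, adjusted p = 0.647).

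The members furthest below the controls were small subunit genes. Mrps2, a small subunit protein with a bacterial counterpart, measured 10.11, 9.35, 9.48 and 9.38 in shIRF7, against 9.89 and 10.33 in scramble and 10.01 and 10.55 in empty vector. Replicates 2 to 4 of shIRF7 lay below every control, and replicate 1 lay among them. The difference was -0.61 (SE 0.23, 95% interval -1.16 to -0.07, adjusted p = 0.559), but 0.16 within replicate 1 and -1.09 within replicate 2. Mrps26, a mitochondria-specific small subunit protein, showed the same arrangement, with 9.67 in shIRF7 replicate 1 and 9.01 to 9.23 in the other 3, against 9.51 and 10.21 in scramble and 9.51 and 9.94 in empty vector. It differed by -0.54 (SE 0.23, adjusted p = 0.606), where replicate 1 alone gave 0.16 and replicate 2 alone -0.98. Mrps18b measured 10.63, 9.49, 9.46 and 9.88 in shIRF7, against 10.27 and 10.78 in scramble and 9.89 and 10.50 in empty vector, a difference of -0.50 (SE 0.30, adjusted p = 0.753), and by replicate it was 0.54 in the first and -1.15 in the second. For all 3, replicate 1 stood on the other side of its controls from replicate 2, and this held for 48 of the 76 members (63.2%) and for 60.6% of all genes.

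In the large subunit the lowest members were Mrpl47, Mrpl46 and Mrpl11. Mrpl47, which sits at the mouth of the exit tunnel, differed by -0.36 (SE 0.29, adjusted p = 0.832), and Mrpl46, a mitochondria-specific protein, by -0.35 (SE 0.24, adjusted p = 0.79) at values of 3.93 to 4.96 that do not exceed the negative controls. Mrpl47 exceeded array background on 3 arrays only. Mrpl11, at the base of the factor-binding stalk, measured 9.03, 9.11, 9.19 and 9.14 in shIRF7, against 9.39 and 9.47 in scramble and 9.17 and 9.58 in empty vector. Only empty vector replicate 1 lay among the shIRF7 values, and the difference was -0.28 (SE 0.14, adjusted p = 0.681).

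**Figure D2:**
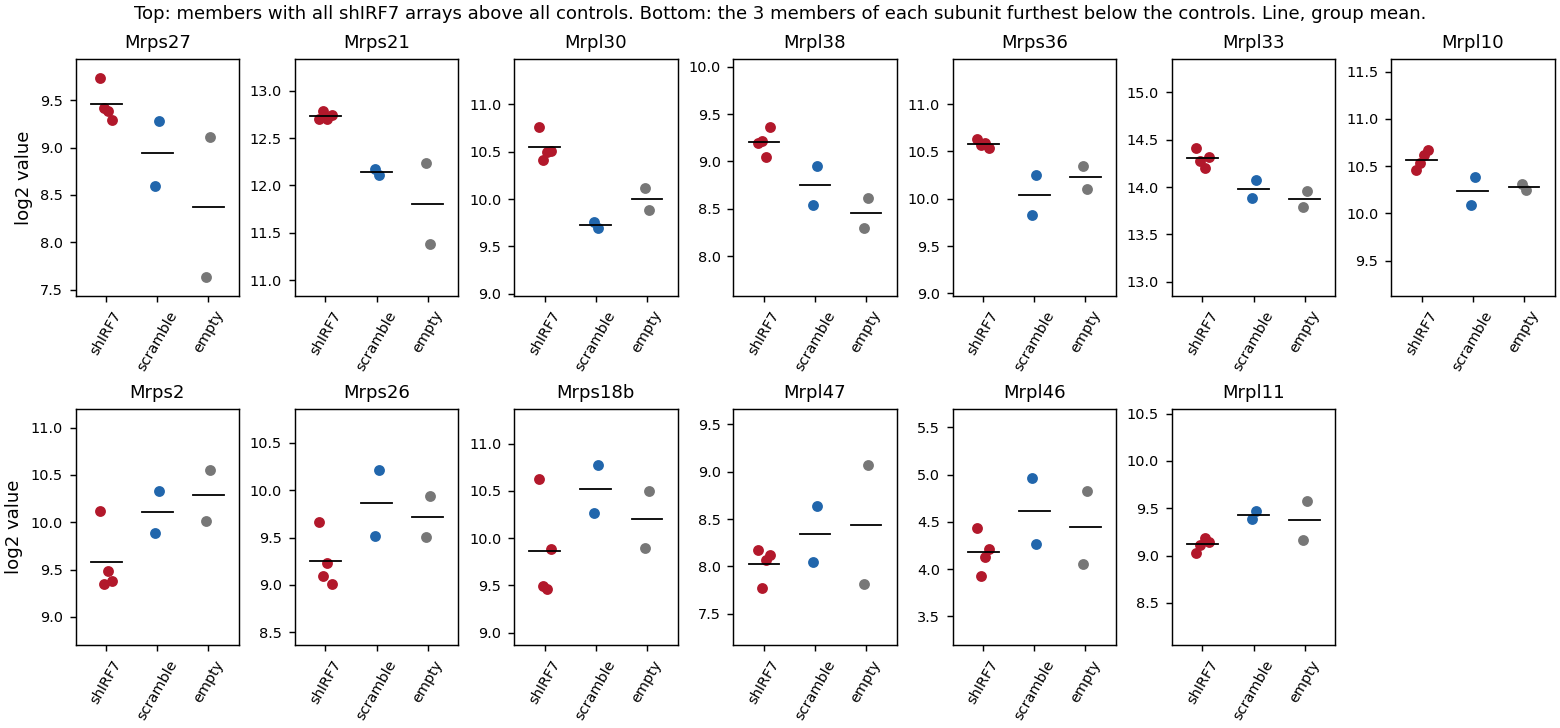
Each point is the log2 value of 1 array, with shIRF7 (red, 4 arrays) left of scramble (blue, 2 arrays) and empty vector (grey, 2 arrays); lines are group means, and all panels span the same number of log2 units. In the upper row the lowest red point lies above the highest control point in all 7 genes, while in the lower row red points overlap control points in all 6 genes.

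By subunit, the median difference was 0.079 over the 48 large subunit genes (31 above 0 and 17 below) and 0.047 over the 28 small subunit genes (15 above 0 and 13 below). Separation above the controls was seen in 4 large and 3 small subunit genes. The gap between both medians, 0.031, was smaller than its SD between arrays of a group, 0.053. Small subunit genes were more spread, with quartiles at -0.21 and 0.21 against -0.03 and 0.22 for large subunit genes. The symbols do not fully match the structure. Mrps30 and Mrps18a sit in the large subunit of the mammalian mitochondrial ribosome, and Mrps36 is left out of both for the reason given above. Sorted by place, the medians were 0.085 over 50 large subunit genes and -0.032 over 25 small subunit genes, a gap of 0.12. That gap ran from -0.0055 to 0.16 by symbol when single arrays were left out, so its size rests on the assignment and on single arrays. Per array, the median member of the large subunit lay 0.13, 0.068, 0.0068 and 0.18 from its control mean in shIRF7 replicates 1 to 4, and that of the small subunit 0.077, -0.032, 0.028 and 0.067.

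The related genes Mrps18a, Mrps18b and Mrps18c are 3 copies of a single bacterial family, each built into a different position of the mitochondrial ribosome. They did not move as a block, since Mrps18a differed by 0.12 (SE 0.15, adjusted p = 0.904), Mrps18b by -0.50 as given above, and Mrps18c by 0.062 (SE 0.22, adjusted p = 0.976). Mrps30, a mitochondria-specific protein, measured 9.64, 9.73, 9.60 and 9.74 in shIRF7, against 9.36 and 9.43 in scramble and 9.74 and 9.28 in empty vector, a difference of 0.23 (SE 0.14, adjusted p = 0.769). Mrpl58, a peptidyl-tRNA hydrolase that rescues stalled mitochondrial ribosomes, differed by 0.074 (SE 0.17, adjusted p = 0.962). Mrps12, a protein of the decoding centre, measured 6.87, 6.36, 6.33 and 6.57 in shIRF7, against 6.59 and 7.10 in scramble and 6.52 and 7.60 in empty vector, with a difference of -0.42 (SE 0.27, adjusted p = 0.77). Mrpl3 and Mrpl44, in which human mutations cause cardiomyopathy with respiratory chain deficiency, differed by 0.087 (SE 0.18, adjusted p = 0.954) and -0.16 (SE 0.17, adjusted p = 0.878).

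Against each control alone the picture was similar in size. The comparisons with scramble and with empty vector share the shIRF7 arrays. Relative to scramble the median over members was 0.034 (all genes 0.0067), with 0 genes past the adjusted threshold in limma (all genes 0.00513%) and 5 at an unadjusted p under 0.05 (all genes 6.14%). All 4 shIRF7 values lay above both scramble values in 10 members (all genes 7.99%) and below both in 2 (all genes 7.61%). Relative to empty vector the median was 0.089 (all genes 0.0044), again with 0 genes past the threshold (all genes 0%) and 8 at an unadjusted p under 0.05 (all genes 5.84%). All 4 lay above both empty vector values in 12 members (all genes 6.32%) and below both in 1 (all genes 6.96%). Without scramble replicate 2 the median against scramble was 0.18, and without scramble replicate 1 it turned to -0.055. That against empty vector was 0.21 without empty vector replicate 2, and turned to -0.020 without empty vector replicate 1. In scramble relative to empty vector the median was 0.092 (47 members higher and 29 lower, all genes -0.0036), and 0 members had an adjusted p under 0.05 (all genes 0%) or an unadjusted p under 0.05 (all genes 1.93%). Both scramble values lay above both empty vector values in 8 members (all genes 10.5%) and below them in 7 (all genes 12.3%). The widest differences there were 0.57 in Mrps27 (SE 0.46), 0.55 in Mrpl16 (SE 0.75) and 0.40 in Mrpl49 (SE 0.55) on the higher side. On the lower side they were -0.54 in Mrpl37 (SE 0.29), -0.44 in Mrpl55 (SE 0.40) and -0.41 in Mrpl24 (SE 0.50), and none of the 6 passed (adjusted p = 0.9999 each). The median for scramble turned to -0.10 without empty vector replicate 1 and to -0.14 without scramble replicate 2.

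Differences between the control replicates were larger in size than those between shIRF7 and the controls. They set 2 arrays against 2, where shIRF7 against the controls sets 4 against 4. Means of fewer arrays vary more, so part of the gap in size is built in. Replicate 2 minus replicate 1, fitted on the 4 control arrays with the vector as a term, had a median of 0.21 over the members (large 0.19, small 0.26), against -0.043 over all genes. The median absolute difference was 0.34 for the members in this comparison and 0.17 in shIRF7 against the controls, and it was the larger of both in 49 of 76 members (64.5%). Over all genes the same medians were 0.30 and 0.17, and the share was 68.3%. In limma 13 members were higher in replicate 2 and 1 lower at an adjusted p under 0.05. These are 17.1% and 1.32% of the members, where all genes gave 10.3% higher and 8.34% lower (18.7% in either direction, against 18.4% of the members). In 12 of the 13 called higher, the lowest control value was on the same array, empty vector replicate 1 (share over all genes not given). Both replicate 2 values lay above both replicate 1 values in 42 members, 28 large and 14 small, which is 55.3% against 26.6% of all genes. They lay below in 6 members, 7.89% against 29.8%. Over the 76 members the change in scramble and that in empty vector correlated with r = 0.64, and over all genes with 0.76, as a description across genes that share the same 4 arrays. The fit has 1 residual degree of freedom and borrows the rest of its error from other genes. When shIRF7 replicates 1 and 2 joined it as another pair, 0 members passed in limma, and 0 of all genes did, so the loss was not particular to the members. Under cyclic loess normalization Mrps12, Mrpl47, Mrps7 and Mrpl19 lost the call, and centring each array on its median ended that of Mrpl23.

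**Figure D3:**
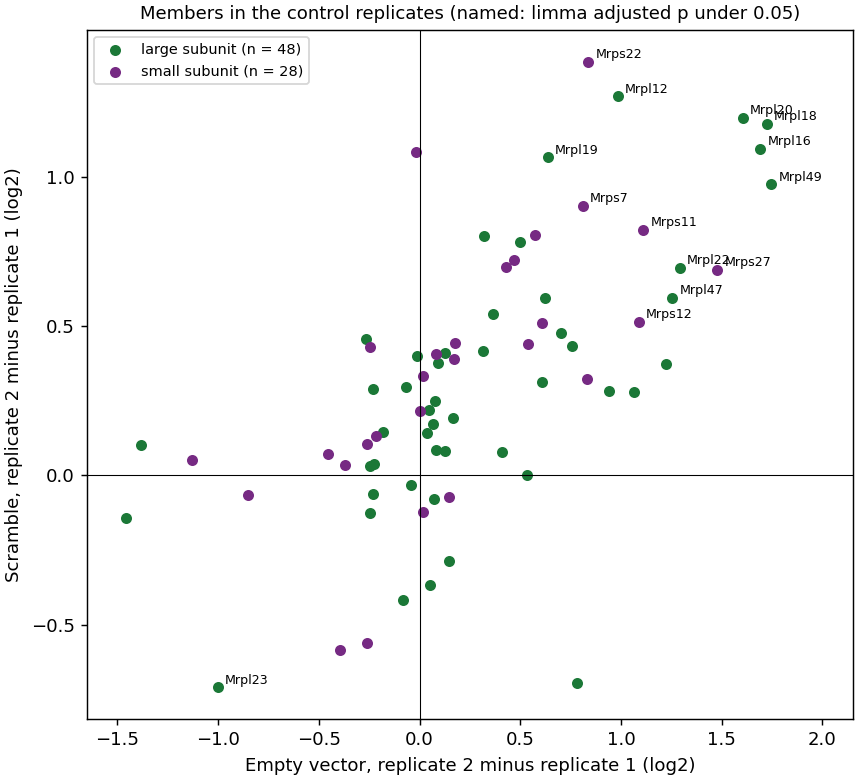
Each point is 1 gene, placed by its replicate 2 minus replicate 1 difference (log2) in empty vector (horizontal) and in scramble (vertical), green for large and purple for small subunit genes. Most points lie above 0 on both axes (46 of 76), with Mrpl18, Mrpl20, Mrpl16 and Mrpl49 furthest along the horizontal axis, and Mrpl23 is the labelled gene in the lower left.

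The largest of these differences were in large subunit genes. Mrpl18, a protein of the central protuberance, measured 11.75 in scramble replicate 2 and 11.75 in empty vector replicate 2, against 10.57 in scramble replicate 1 and 10.02 in empty vector replicate 1, a difference of 1.45 (SE 0.26, adjusted p = 0.000876). Mrpl20, which in bacteria is needed early in assembly of the large subunit, measured 13.43 and 13.30 in replicate 2 of scramble and empty vector, against 12.24 and 11.69 in replicate 1, a difference of 1.4 (SE 0.25, adjusted p = 0.00101). Mrpl16 differed by 1.39 (SE 0.26, adjusted p = 0.00128) and Mrpl49 by 1.36 (SE 0.27, adjusted p = 0.00193). Mrpl12, the stalk protein that also binds the mitochondrial RNA polymerase, measured 10.45 and 10.03 in replicate 2 of scramble and empty vector, against 9.18 and 9.04 in replicate 1, a difference of 1.13 (SE 0.25, adjusted p = 0.00457). The remaining members called higher were Mrps22 (1.11), Mrps27 (1.08), Mrpl22 (0.99), Mrps11 (0.97), Mrpl47 (0.92), Mrps7 (0.86), Mrpl19 (0.85) and Mrps12 (0.80). Of these, Mrpl22 and Mrps12 did not exceed array background on any array, so their calls rest on values that cannot be told from it. The same holds for the call of Mrpl16, which exceeded background on 1 array only, shIRF7 replicate 1, and on no control array. Mrpl47 exceeded background on 3 arrays only and on neither replicate 1 control, and Mrps27 did so on all arrays but empty vector replicate 1. The size of their differences is therefore uncertain. Mrps22 and Mrps7 are small subunit proteins in which human mutations impair mitochondrial translation. The call lower was Mrpl23, at 9.82 and 9.47 in replicate 2 of scramble and empty vector, against 10.53 and 10.47 in replicate 1, a difference of -0.86 (SE 0.25, adjusted p = 0.0251). It has a named pseudogene, so its value is uncertain. Mrpl24 (-0.80, adjusted p = 0.0811) and Mrpl55 (-0.64, adjusted p = 0.193) were next, and neither passed. Both were set apart by 1 array. Mrpl24 measured 10.83 and 10.59 in replicate 2 of scramble and empty vector, against 10.97 and 12.04 in replicate 1, and Mrpl55 measured 7.48 and 7.18, against 7.38 and 8.56.

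The shIRF7 arrays did not follow the replicate number in the way the controls did. Of the 13 members called higher in control replicate 2, 12 were lower in shIRF7 replicate 2 than in shIRF7 replicate 1, as were 50 of all 76 members (65.8%). The matching shares over all genes are not given. Across all genes, deviations from the group mean in shIRF7 also correlated negatively with those of the same number in scramble (-0.21) and empty vector (-0.29). Over the members the same correlations were -0.30 with scramble and -0.42 with empty vector. The negative sign was therefore not particular to the members, though the values over the members were further from 0. Mrpl20 measured 13.42, 12.06, 12.17 and 13.00 in shIRF7 replicates 1 to 4, so that replicates 1 and 4 resembled control replicate 2, and replicates 2 and 3 resembled control replicate 1. Mrpl16 was arranged alike, with 8.56, 6.92, 7.03 and 8.27, though only the first of these values exceeded array background. Mrpl12, with 10.43, 9.20, 9.16 and 9.76, had replicate 4 in between. In these genes the spread within shIRF7 exceeded the difference between shIRF7 and the controls, which was -0.036 for Mrpl12 (SE 0.41, adjusted p = 0.99). Mrps22 was the 1 of the 13 that was higher in shIRF7 replicate 2 than in replicate 1, and Mrps27 was the 1 whose shIRF7 arrays all lay above all controls.

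Genes of proliferation followed the same arrangement of arrays. The median of 25 measured genes of DNA replication and mitosis lay 0.87, -0.10, -0.062 and 0.55 from the control mean in shIRF7 replicates 1 to 4, -0.51 and 1.5 in scramble replicates 1 and 2, and -2.53 and 1.44 in empty vector replicates 1 and 2. All 25 were higher in control replicate 2 at an adjusted p under 0.05, by a median of 2.81. Myc, a growth regulator known to raise ribosomal and mitochondrial genes, was higher in control replicate 2 by 0.75 (adjusted p = 0.0477). The negative control medians also differed between replicates 1 and 2, as given above. The part of proliferation, Myc and array background in the ribosomal protein values was not tested.

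**Figure D4:**
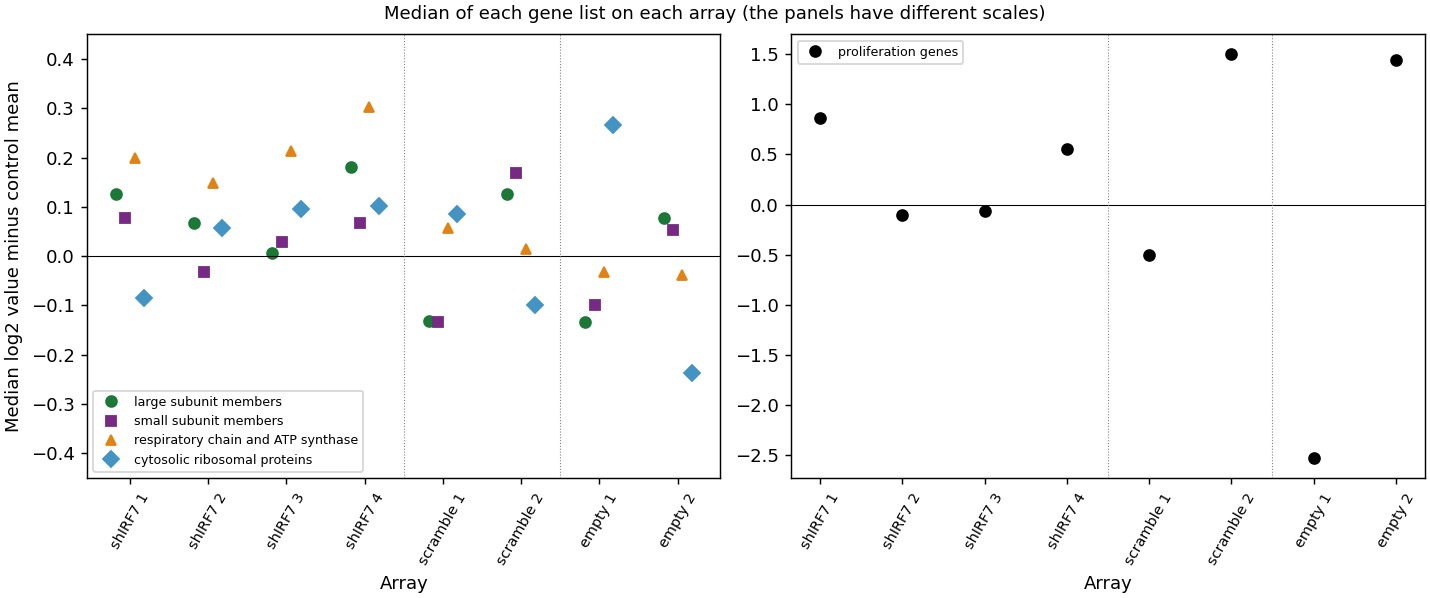
Each point is the median over 1 gene list of the log2 value minus the mean of the 4 controls, by array, with shIRF7 left of scramble and empty vector. The medians of both mitochondrial ribosome subunits are below 0 in replicate 1 and above 0 in replicate 2 of both controls, as is the proliferation median on its wider scale, while the respiratory chain median is above every control on all 4 shIRF7 arrays.

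Other genes of mitochondrial gene expression were set beside the members. For each list, 0 genes passed the adjusted threshold in shIRF7 against both controls in limma, and counts at an unadjusted p under 0.05 are given. Among 26 assembly factors of the mitochondrial ribosome the median difference was 0.088, with 1 higher and 2 lower. Dhx30, an RNA helicase needed for that assembly, lay below all controls on all 4 shIRF7 arrays, with means of 9.40 in shIRF7 and 10.1 in the controls and a difference of -0.70 (SE 0.21, adjusted p = 0.432). Of 19 mitochondrial translation factors the median was 0.18, with 2 higher and 0 lower. Mpv17l2 (0.65, SE 0.26, adjusted p = 0.59), which takes part in ribosome assembly, and Mtrf1 (0.45, SE 0.19, adjusted p = 0.597), a release factor, lay above all controls. For 16 mitochondrial aminoacyl-tRNA synthetases it was 0.028, with 0 in either direction, and the largest difference was that of Rars2 at 0.71 (SE 0.37). The 18 genes of mitochondrial DNA and transcription had 0.047, with 2 higher and 0 lower, led by Primpol at 0.78 (SE 0.32). The 10 regulators of mitochondrial biogenesis had -0.17, with 0 in either direction, and Myc differed by -0.71 (SE 0.36, adjusted p = 0.689). The 4 measured subunits that carry other names (Dap3, Gadd45gip1, Chchd1 and Ptcd3) had -0.014, with 0 in either direction.

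The nearest comparison is with the respiratory chain and ATP synthase, whose mitochondrially encoded subunits this ribosome makes. The 76 members had a median difference of 0.07, with 60.5% above 0, 10.5% higher at an unadjusted p under 0.05 and 9.21% above all controls on every shIRF7 array. Over 75 nuclear genes of these complexes the median was 0.22, with 84% above 0, 18.7% higher at an unadjusted p under 0.05 and 24% above all controls. Over all genes the shares were 50.3%, 4.01% and 2.58%. Per array, the respiratory chain median lay 0.20, 0.15, 0.21 and 0.30 from the control mean in shIRF7 replicates 1 to 4, 0.058 and 0.015 in scramble and -0.031 and -0.038 in empty vector, so that no shIRF7 array reached a control. The median member lay 0.11, 0.017, 0.0098 and 0.15 from it in shIRF7, -0.13 and 0.13 in scramble and -0.12 and 0.073 in empty vector, so shIRF7 and controls overlapped. Whether both groups of genes differed in their response was not tested. Between control replicates the medians were 0.21 for the members and -0.049 for the respiratory chain genes. The 60 genes of the cytosolic ribosome, which makes the proteins of both, had medians of 0.05 in shIRF7 against the controls and -0.37 in control replicate 2 against replicate 1. Mitochondrial import genes, 23 in all, and mitochondrial proteases and chaperones, 14 in all, had medians of 0.064 and -0.024 in shIRF7 and of 0.66 and 0.72 between control replicates. Hspa9, the chaperone that pulls imported proteins into the matrix, lay below all controls, by -1.02 (SE 0.22, adjusted p = 0.244), and Timm17b, a channel protein of the inner membrane, above them by 0.86 (SE 0.21, adjusted p = 0.304).

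Promoters were read to see what the members share upstream. RefSeq windows of 300 bases (GRCm38.p6), which begin 250 bases before the start of the transcript, matched 67 of the 76 genes with 73 windows. Motifs were searched by letters on both strands, as descriptions and not as sites, and a gene was counted once if any of its windows held the letters. The letters CCGGAAG of the Ets factor GABP were in 37.3% of the 67 members and in 12.9% of 17491 protein-coding genes. Those of NRF1 (GCGCA, then any base, then GCGC), like GABP a known regulator of mitochondrial genes, were in 19.4% against 7.17%, and those of YY1 (AAGATGGCG) in 11.9% against 2.14%. The E-box CACGTG, which Myc can bind, was in 7.46% against 8.91%. The core of the element that interferon regulatory factors bind (GAAA, any 2 bases, GAAA) was in 4.48% against 3.94%, from 3 genes (Mrps21, Mrpl20 and Mrps18c), and TATAAA in 7.46% against 14.8%. The stretch of 250 bases before the start is shown for 3 members that lay above all controls and for Mrpl12, with the motif letters in capitals. They lie at chr1:37890227-37890476 (plus strand), chr13:99344536-99344785 (plus strand), chr3:95871515-95871764 (minus strand) and chr11:120484387-120484636 (plus strand).
Mrpl30: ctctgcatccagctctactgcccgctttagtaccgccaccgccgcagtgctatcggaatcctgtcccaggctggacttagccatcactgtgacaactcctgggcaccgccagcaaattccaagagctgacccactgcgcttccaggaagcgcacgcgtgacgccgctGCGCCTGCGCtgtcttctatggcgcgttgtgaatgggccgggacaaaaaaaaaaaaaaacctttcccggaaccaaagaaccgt
Mrps27: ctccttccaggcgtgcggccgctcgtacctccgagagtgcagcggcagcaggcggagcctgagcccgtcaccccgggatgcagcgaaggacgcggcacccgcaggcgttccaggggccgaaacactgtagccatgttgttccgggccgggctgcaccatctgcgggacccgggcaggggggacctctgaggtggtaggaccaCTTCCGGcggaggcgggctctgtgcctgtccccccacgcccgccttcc
Mrps21: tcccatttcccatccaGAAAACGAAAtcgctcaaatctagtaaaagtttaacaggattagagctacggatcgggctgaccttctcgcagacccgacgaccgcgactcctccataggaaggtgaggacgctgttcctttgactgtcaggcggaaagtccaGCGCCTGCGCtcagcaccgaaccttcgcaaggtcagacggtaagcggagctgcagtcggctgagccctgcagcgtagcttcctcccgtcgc
Mrpl12: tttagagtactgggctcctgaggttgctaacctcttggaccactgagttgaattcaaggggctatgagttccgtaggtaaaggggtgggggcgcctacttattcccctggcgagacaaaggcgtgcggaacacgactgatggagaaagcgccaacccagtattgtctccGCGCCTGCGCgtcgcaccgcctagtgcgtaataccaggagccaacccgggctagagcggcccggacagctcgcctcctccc
The capitals mark NRF1 letters, as read on the other strand, in Mrpl30 and Mrpl12, GABP letters on the other strand in Mrps27, and in Mrps21 the interferon element first and NRF1 letters of the other strand after it. The NRF1 letters began 83 bases before the start in Mrpl30, 91 in Mrps21 and 81 in Mrpl12. Of these 4 genes, the 3 with NRF1 letters did not move alike, since Mrpl30 and Mrps21 lay above all controls while Mrpl12 followed the arrays described above.

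Many of the members start back to back with another gene. In 25 of the 67 a protein-coding gene on the other strand began within 1000 bases of the member's start (37.3%, against 8.66% of 17491 protein-coding genes by the same rule). Mrpl46 and Mrps11 face each other at 42 bases, and only Mrps11 was called between control replicates, while Mrpl46 did not exceed the negative controls. Of the 24 members whose partner was measured, 6 had the same sign as the partner in shIRF7 against the controls and 16 in control replicate 2 against replicate 1. Mrpl46 and Mrps11 are each other's partner and were counted from both sides. Some differences lay near 0, as in Mrpl41 (0.0052), and no share over all back-to-back genes is given, so these counts are a description only. Mrpl30 and Mitd1, 66 bases apart, went opposite ways. Mitd1, which acts in the last step of cell division, measured 8.97, 9.85, 9.54 and 10.02 in shIRF7, against 9.99 and 11.35 in scramble and 9.81 and 11.32 in empty vector, a difference of -1.02 (SE 0.43, adjusted p = 0.611), where Mrpl30 had 0.68. Mrps27 (0.81) and Ptcd2 (-0.16, SE 0.20, adjusted p = 0.914), 108 bases apart, also had unlike signs.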

How the data were processed

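Total RNA of 8 samples was measured on Affymetrix arrays. The deposited values are on a log2 scale and were made by the authors by RMA, with Expression Console 1.4.1.46 of Affymetrix, as the submitters' processing notes list; the probe set library and genome build are not given in the sources used here. They run from 1.66 to 18.9. RMA quantile normalization gives all arrays 1 distribution, so a shift shared by most genes would not be seen, and the number of arrays limits the precision.

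Of 28846 probe sets, 19572 had 1 gene symbol, and they stand for 19505 genes. Where a gene had more than 1 (55 genes), the brightest on average was kept. limma 3.58.1 (R 4.3.3) fitted a mean per group on all 8 arrays (5 residual degrees of freedom) with Benjamini-Hochberg adjustment over all genes. The control replicates were compared on the 4 control arrays with the vector as a term. Only the fit of shIRF7 against both controls was checked on simulated data, with noise drawn independently for each gene and array. The control replicate fit was not checked. Array background was taken as the 95th percentile of 5222 negative control probe sets on each array. Promoter windows came from RefSeq (GRCm38.p6), and start distances from the same windows.

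The members and gene lists were chosen with earlier results of these data known. Genes named are members called in any comparison, members whose groups do not overlap, the 3 furthest in each direction per subunit and, for scramble against empty vector and control replicates, over all members, and genes chosen by role. For the other lists, up to 3 genes with the largest differences were considered. Alternatives were a filter on dim genes, another variance model, cyclic loess, centring, other handling of several probe sets, pooled controls, a replicate block, single arrays left out, and subunits by place.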

Additional observations from a re-analysis of the deposited data

How the results depend on the processing

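With 4 knockdown and 4 control arrays, differences under 0.46 (log2) were not resolved for a typical member even before adjustment over all genes. On all arrays 8 members lay at array background, and 15 did so on some. Background correction and scan date could not be varied from processed values. In all settings run, 0 members passed in shIRF7 against the controls or in scramble against empty vector, and leaving out single arrays gave a lowest adjusted p of 0.135 among the members named for shIRF7 against both controls (limma). With single arrays left out, the median difference was 0.016 to 0.14 against both controls, -0.055 to 0.18 against scramble, -0.020 to 0.21 against empty vector and -0.14 to 0.18 for scramble against empty vector. Members above all controls numbered 7 to 11 and below all controls 0 to 4 with single arrays left out. Fewer arrays can only keep or raise such counts, so the lower ends were fixed in advance. Over all genes the shares without shIRF7 replicate 1 were 6.98% above and 6.05% below. Below all controls there were also 2 with cyclic loess, and, by alternatives chosen after seeing the data, 2 with shIRF7 replicates 2 and 3 averaged and 4 with replicates 1 and 2 only. Shares over all genes are not given for these settings, so the counts are not read as results about the members. The gap of large minus small subunit medians was -0.0055 to 0.16 with single arrays left out, and 0.12 by place. Between control replicates 14 members were called, and 0 when 6 arrays were fitted, where 0 of all genes were called as well. Leaving out a control array was not possible there.

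The replicate numbers did not meet the criterion for pairing across all 3 groups, since the controls deviated together and shIRF7 did not. Deviations from the group mean correlated across genes at 0.76 between scramble and empty vector of the same number, but at -0.21 between shIRF7 and scramble and -0.29 between shIRF7 and empty vector. With the replicate block 0 members passed in limma in shIRF7 against both controls. The block turned Mrpl12 to 0.14 and Mrps18c to -0.066, as did replicates 1 and 2 only, and averaging shIRF7 replicates 2 and 3 turned Mrpl12 to 0.12. With single arrays left out, recomputed for the named members only, differences from both controls turned sign in Mrpl12 (-0.35 to 0.28), Mrps18c (-0.14 to 0.26), Mrpl3 (-0.028 to 0.18) and Mrpl58 (-0.078 to 0.23). Those of scramble against empty vector did so in Mrpl55 (-1.13 to 0.25), Mrpl24 (-1.14 to 0.31), Mrps27 (-0.17 to 1.31), Mrpl16 (-0.30 to 1.39) and Mrpl49 (-0.47 to 1.27). The cause was not tested.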
